A study of Homo sapiens with 8 samples.

Results

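Complement and coagulation genes encode the plasma proteins, mostly made by hepatocytes, that tag microbes and form clots, together with the cell-surface proteins that start or restrain both cascades. The set described here is a list of 37 gene symbols, looked up by symbol in a gene-level table of FPKM (fragments per kilobase of transcript, scaled to library size). The table holds 36 of them among 18902 analysed features, and F9 was not analysed here. The cells were the hepatocellular carcinoma lines MHCC-97H and MHCC-97L, human tumour lines named for their high and low metastatic potential. Each was grown without and with a stable transgene for Flag-OGT, in serum-containing medium. OGT is the enzyme that attaches N-acetylglucosamine to serine and threonine residues of intracellular proteins. The transgene encoded full-length human OGT with a C-terminal Flag tag in a lentiviral vector that also carries luciferase, and neomycin resistance was used for selection. The 4 groups have 2 libraries each and are named as in the labels: 97H and 97L without the transgene, 97H_OGT and 97L_OGT with it. For 97H and 97L, the controls, no genotype is labelled, and the sources used here do not say if an empty vector was present. Nor do they say if the Flag-OGT cells were single clones or pools.

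Complement runs through proteases that cut one another in turn. C1r and C1s start the classical pathway, C2 and factor B form the convertases, and C3, C5 and C6 are components downstream. Host cells protect themselves with the membrane proteins CD46, CD55 and CD59. Coagulation begins when tissue factor (F3) binds factor VII, proceeds through factors X, V and II (prothrombin), and ends with the conversion of fibrinogen to fibrin. The antithrombotic proteins TFPI, protein C, protein S and thrombomodulin hold it back. Plasmin, released from plasminogen by the activators urokinase (PLAU) and tissue plasminogen activator (PLAT), dissolves the clot. Tumour cells often make the surface parts of these systems, tissue factor, urokinase and the urokinase receptor PLAUR, themselves.

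The FPKM of a library summed to between 510449 and 613101, with 11044 to 11958 genes at 1 FPKM or more. The number of reads behind the values is unknown. OGT itself was at 32.5 and 34.2 FPKM in 97H, 59.0 and 58.4 FPKM in 97H_OGT, 45.7 and 43.9 FPKM in 97L, and 50.95 and 54.5 FPKM in 97L_OGT (log2 0.8 and 0.23, adjusted p = 3.0e-07 and 3.4e-03 by limma). Over all genes tested below, the median log2 change was 0.15 in line 97H and 0.19 in line 97L. The OGT gain in line 97L lay near that median. The Flag-OGT libraries stood apart from the controls at the markers of the labelled cell type. Of 15 hepatocyte markers, 7 in 97H and 11 in 97L averaged at least 1 FPKM, against 0 in 97H_OGT and 2 in 97L_OGT. Together these markers came to 62.2 and 63.6 FPKM in 97H, 204.7 and 205.1 FPKM in 97L, 1.60 and 2.24 FPKM in 97H_OGT, and 2.62 and 5.13 FPKM in 97L_OGT. HNF4A, a transcription factor that maintains hepatocyte identity, ranged from 13.4 to 14.6 FPKM over the 4 control libraries and from 0.01 to 0.04 FPKM over the 4 others. Albumin (ALB) was at 1.78 and 1.95 FPKM in 97H, 13.4 and 14.2 FPKM in 97L, and 0.02 to 0.12 FPKM in the libraries with the transgene. HNF4A and ALB were thus at or near 0 in the libraries labelled OGT. Every rise or fall below is a difference between labelled libraries, and the part of this loss in it was not tested. Whether the libraries labelled OGT hold RNA of the labelled lines was not tested either. APOA1 was at 0.39 and 0.33 FPKM in 97H, 0.54 and 0.71 FPKM in 97H_OGT, 4.65 and 4.62 FPKM in 97L, and 2.1 and 0.78 FPKM in 97L_OGT, so this marker was not lower in 97H_OGT than in 97H. Among markers of leukocytes, which can also make complement proteins, CD68 lay between 63.4 and 79.8 FPKM without and between 0.97 and 2.38 FPKM with the transgene. The pan-leukocyte PTPRC was at 0.15 to 0.64 FPKM in all 8 libraries. The 7 of 10 listed macrophage and leukocyte markers found summed to 69.0 to 82.5 FPKM without and 2.85 to 8.78 FPKM with the transgene, and CD68 made up most of the former. The 10 endothelial markers summed to 38.2 to 64.8 FPKM without and 34.8 to 44.2 FPKM with it, the 8 fibroblast and stellate cell markers to 4.54 to 12.2 and 14.7 to 21.0 FPKM, and 4 megakaryocyte markers to 0.63 to 3.18 and 1.21 to 3.74 FPKM. Within the endothelial sum, PECAM1, ESAM and KDR were 18.4-fold to 67.7-fold lower with the transgene, while EGFL7 was at 4.74 and 4.48 FPKM in 97H, 42.6 and 42.2 FPKM in 97H_OGT, 17.8 and 17.4 FPKM in 97L, and 35.2 and 32.0 FPKM in 97L_OGT. Within the fibroblast sum, LUM was at 4.0 to 11.5 FPKM without and 0 to 0.08 FPKM with the transgene, ACTA2 at 0 to 0.16 and 8.28 to 16.0 FPKM, and COL1A1 at 0.04 to 0.18 and 3.62 to 6.19 FPKM. The part of any of these in the results was not tested. In bulk RNA, fewer cells of a kind and less RNA per cell cannot be told apart.

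The 36 genes together made up a small part of the RNA and a smaller part still in the Flag-OGT libraries. Their FPKM summed to 521 and 498 in 97H and 128 and 129 with Flag-OGT, and to 630 and 654 in 97L and 101 and 102 with Flag-OGT. Clusterin (CLU) alone held more than any other gene of the set in the controls. Without it the sums were 231 and 239 FPKM against 118 and 118 FPKM in 97H, and 227 and 220 FPKM against 96.2 and 97.99 FPKM in 97L. Means of at least 1 FPKM were reached by 17 genes in 97H, 24 in 97L, 13 in 97H_OGT and 11 in 97L_OGT.

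**Figure D1:**
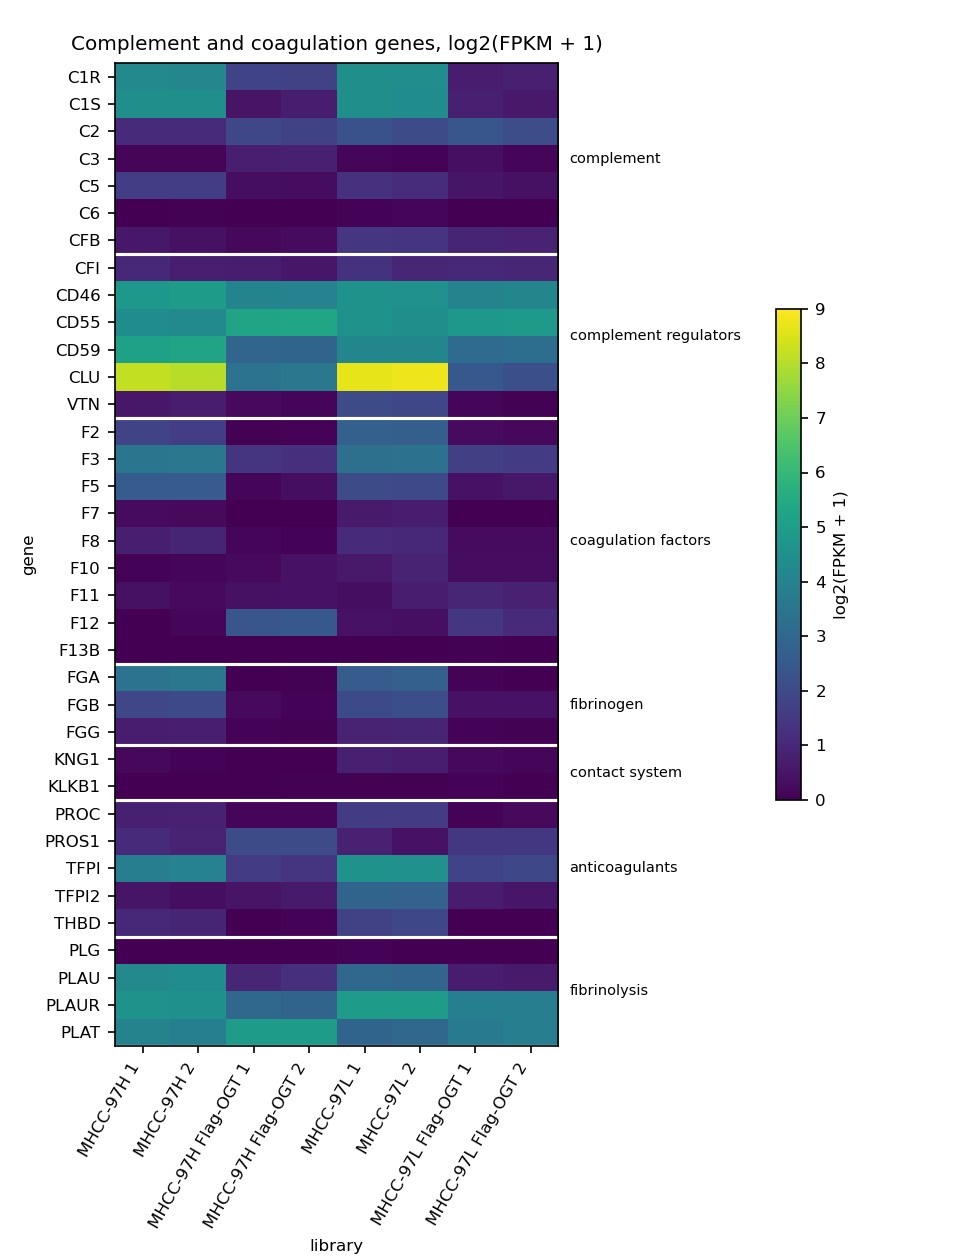
Each row is 1 of the 36 genes, grouped by role, and each column 1 of the 8 libraries; colour is log2(FPKM + 1). CLU is the brightest row in the 4 control columns, CD55, F12, PROS1 and PLAT are brighter in the Flag-OGT columns, and C6, F13B, KLKB1 and PLG are dark throughout.

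Genes with a mean of at least 0.5 FPKM over the 8 libraries were tested with limma on log2(FPKM + 1), all 13553 of them in 1 fit, and called at a Benjamini-Hochberg adjusted p under 0.05. Log2 changes are given with their standard error, on the log2(FPKM + 1) scale, which understates the change of low genes; fold values are ratios of mean FPKM. Of the 36 genes, 26 passed the filter. For 9 of these (C5, VTN, F2, F5, F8, FGA, FGB, PROC and THBD) the mean of the Flag-OGT libraries lay below 0.5 FPKM, so they were tested only because of their control level. F12 was the reverse case. Counts over the tested genes therefore describe them and are no support for a direction. In line 97H, 24 members were called, 19 lower and 5 higher with the transgene, and 2 were not; of all tested genes 84.6% were called, 36.3% lower and 48.2% higher. In line 97L, 24 were called, 20 lower and 4 higher, and 2 were not; of all tested genes 84.8% were called, 34.7% lower and 50.1% higher. The share of members called was near that background. A change of at least 2-fold was called downward for 13 and upward for 2 members in 97H (16.0% and 22.3% of tested genes), and downward for 15 and upward for 0 in 97L (16.1% and 18.6%). The median log2 change of the tested members was -1.12 in 97H and -1.48 in 97L, against 0.15 and 0.19 for all tested genes. Median-of-ratios scaling moved those medians of all genes to 0 and 0.02, and left 20 members lower and 5 higher in 97H and 20 lower and 3 higher in 97L.

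**Figure D2:**
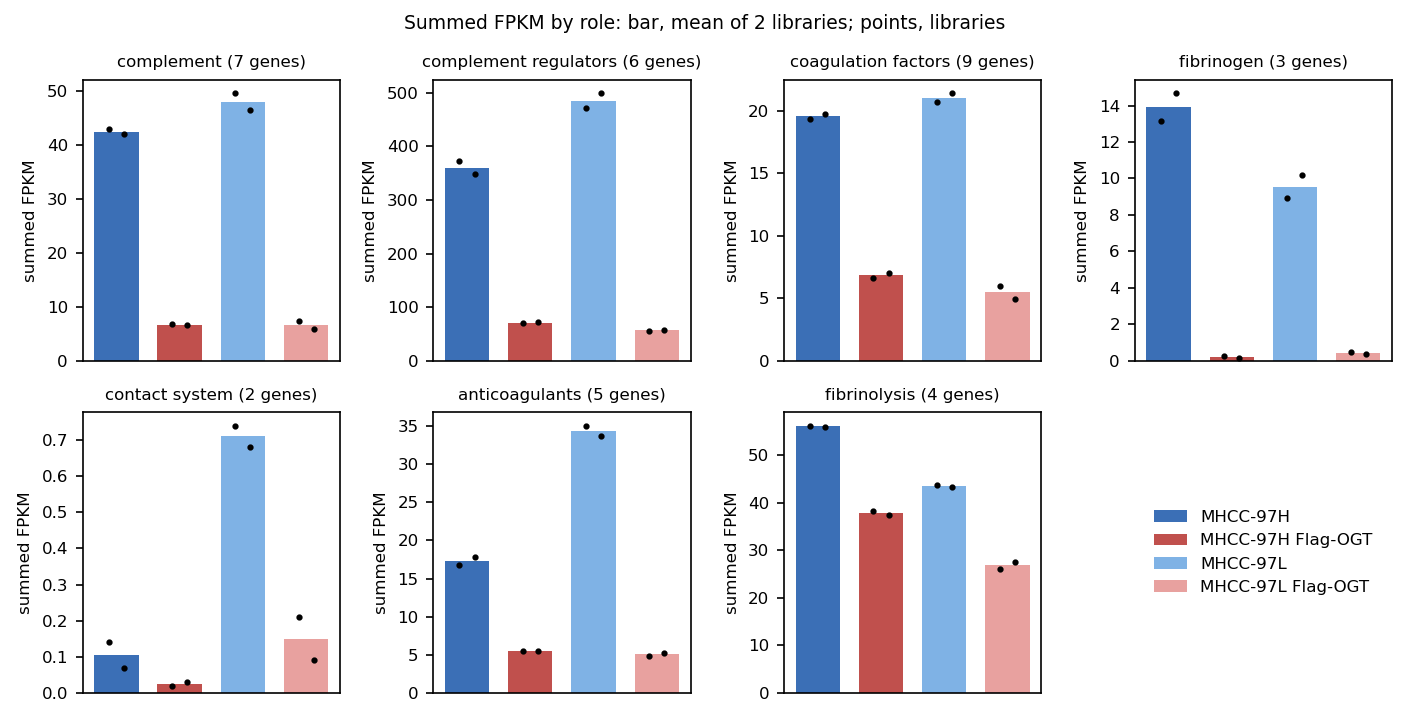
Bars are the mean summed FPKM of the genes of each role in each group, points the 2 libraries. In line 97H the 3 fibrinogen genes go from sums of 13.2 and 14.7 FPKM to 0.24 and 0.14 FPKM, while the 4 fibrinolysis genes keep the largest part of their control sum, 56.2 and 55.9 FPKM against 38.3 and 37.5 FPKM.

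Both proteases that open the classical complement pathway fell in both lines. C1R was at 17.9 and 17.2 FPKM in 97H and 2.48 and 2.43 FPKM in 97H_OGT, a 7.14-fold lower mean (log2 -2.42 ± 0.07, adjusted p = 3.1e-10). The 97L libraries had 21.2 and 20.3 FPKM and 97L_OGT 0.59 and 0.74 FPKM, 31.2-fold lower (log2 -3.71 ± 0.07, adjusted p = 1.9e-11). The groups did not overlap in either line, and the remaining C1R level was higher in 97H_OGT than in 97L_OGT. C1S, which lies next to C1R on chromosome 12 in the RefSeq order of GRCh38.p14, was at 21.1 and 21.2 FPKM in 97H and 0.4 and 0.59 FPKM in 97H_OGT (log2 -3.89 ± 0.087, adjusted p = 4.6e-11). Levels in line 97L were 21.3 and 19.96 FPKM without and 0.74 and 0.55 FPKM with the transgene (log2 -3.72 ± 0.087, adjusted p = 7.3e-11). The fall of C1R was smaller in 97H than in 97L (difference of log2 changes 1.28 ± 0.1, adjusted p = 4.1e-06), whereas for its neighbour C1S the difference was -0.18 (95% interval -0.45 to 0.1, adjusted p = 0.234).

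The convertase subunits were low in every group and did not move together. C2 was at 1.14 and 1.09 FPKM in 97H and 2.81 and 2.37 FPKM in 97H_OGT (log2 0.76 ± 0.12, adjusted p = 1.3e-04). For 97L the values were 3.86 and 3.14 FPKM, and for 97L_OGT 4.35 and 3.34 FPKM, which overlapped (log2 0.10, 95% interval -0.16 to 0.36, adjusted p = 0.418). CFB, the factor B of the alternative pathway, was at 0.5 and 0.31 FPKM against 0.13 and 0.19 FPKM in 97H and at 1.69 and 1.64 FPKM against 0.9 and 0.81 FPKM in 97L. It was called lower in both lines (adjusted p = 9.8e-03 and 1.5e-04). In 97H that call was lost without the first control library (log2 -0.18, adjusted p = 0.0877) and without the first Flag-OGT library (log2 -0.24, adjusted p = 0.0562). C5, the precursor of the inflammatory fragment C5a, was at 2.11 and 2.12 FPKM in 97H and 0.27 and 0.24 FPKM in 97H_OGT, and at 1.41 and 1.22 FPKM in 97L and 0.42 and 0.33 FPKM in 97L_OGT (adjusted p = 4.4e-08 and 4.1e-06). C3, the central component on which all pathways converge, stayed below the filter, at 0.09 FPKM in both 97H controls, 0.7 and 0.75 FPKM with Flag-OGT, 0.09 and 0.05 FPKM in 97L and 0.28 and 0.08 FPKM with Flag-OGT. C6, a part of the membrane attack complex, reached at most 0.08 FPKM in a library.

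The shields that cells carry against complement did not move as a block. CD55, which speeds the decay of the convertases, was at 19.76 and 18.99 FPKM in 97H and 37.03 and 39.44 FPKM in 97H_OGT, 1.97-fold higher (log2 0.94 ± 0.063, adjusted p = 1.8e-07). Line 97L went from 23.1 and 21.3 FPKM to 26.9 and 27.8 FPKM (log2 0.29 ± 0.063, adjusted p = 1.5e-03); with median-of-ratios scaling this gain was 0.09 and not called (adjusted p = 0.21). CD55 was the most abundant gene of the set in the Flag-OGT libraries of 97H and 97L. CD59, which blocks the membrane attack complex, went the other way. It was at 34.7 and 37.6 FPKM in 97H and 6.62 and 6.53 FPKM in 97H_OGT, 5.5-fold lower (log2 -2.29 ± 0.064, adjusted p = 2.2e-10). CD59 values in 97L were 16.5 and 16.4 FPKM, with 7.91 and 8.44 FPKM in 97L_OGT (log2 -0.93 ± 0.064, adjusted p = 2.6e-07). CD46, a cofactor for the cleavage of C3b and C4b, was at 26.7 and 30.7 FPKM in 97H and 15.7 and 15.0 FPKM in 97H_OGT, and at 23.9 and 22.6 FPKM in 97L and 15.4 and 16.7 FPKM in 97L_OGT (log2 -0.85 ± 0.076 and -0.51 ± 0.076, adjusted p = 2.0e-06 and 1.2e-04). No group of CD46, CD55 or CD59 overlapped its control.

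The soluble regulators were led by CLU, the secreted chaperone that also binds the terminal complement complex. CLU was at 290 and 259 FPKM in 97H and 9.86 and 10.8 FPKM in 97H_OGT, 26.6-fold lower (log2 -4.61 ± 0.095, adjusted p = 2.6e-11). The 97L libraries had 403 and 435 FPKM and 97L_OGT 4.51 and 3.55 FPKM, 104-fold lower (log2 -6.39 ± 0.095, adjusted p = 4.1e-12). It had the deepest log2 fall of the 26 tested members in both lines. Vitronectin (VTN), an adhesive plasma protein that also restrains the membrane attack complex, was at 0.49 and 0.64 FPKM in 97H and 0.18 and 0.09 FPKM in 97H_OGT. Levels in line 97L were 3.2 and 2.79 FPKM without and 0.1 and 0.03 FPKM with the transgene (adjusted p = 5.3e-04 and 9.9e-09). CFI, the protease that inactivates C3b, was at 0.98 and 0.67 FPKM in 97H and 0.61 and 0.46 FPKM in 97H_OGT, and at 1.52 and 0.97 FPKM in 97L and 1.0 and 0.96 FPKM in 97L_OGT (adjusted p = 0.0846 and 0.214). In 97H, CFI was called lower with median-of-ratios scaling (log2 -0.34, adjusted p = 0.03), with a replicate block (adjusted p = 0.0279) and without the second 97H or either 97L library (adjusted p = 0.0366 to 0.0386).

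Tissue factor, the cellular trigger of coagulation, was lower with Flag-OGT. F3 was at 10.5 and 11.2 FPKM in 97H and 1.63 and 1.4 FPKM in 97H_OGT, 7.14-fold lower (log2 -2.23 ± 0.081, adjusted p = 1.6e-09). For 97L the values were 8.92 and 9.34 FPKM, and for 97L_OGT 2.25 and 1.94 FPKM, 4.36-fold lower (log2 -1.71 ± 0.081, adjusted p = 1.4e-08). Its main inhibitor was lower as well: TFPI, which blocks the complex of tissue factor with factor VIIa, was at 13.5 and 15.1 FPKM in 97H and 1.94 and 1.65 FPKM in 97H_OGT (log2 -2.45 ± 0.087, adjusted p = 1.4e-09). Line 97L went from 23.4 and 22.4 FPKM to 2.47 and 2.89 FPKM (log2 -2.70 ± 0.087, adjusted p = 8.1e-10).

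The plasma clotting factors F5, F2 and F8 fell in both lines and F12 rose. F5, the cofactor of factor Xa, was at 5.07 and 4.99 FPKM in 97H and 0.09 and 0.26 FPKM in 97H_OGT, and at 3.11 and 2.98 FPKM in 97L and 0.37 and 0.48 FPKM in 97L_OGT (log2 -2.36 ± 0.085 and -1.51 ± 0.085, adjusted p = 1.5e-09 and 5.7e-08). F2, prothrombin, was at 2.56 and 2.14 FPKM in 97H and 0.03 and 0.05 FPKM in 97H_OGT, and at 5.77 and 5.65 FPKM in 97L and 0.2 and 0.15 FPKM in 97L_OGT (log2 -1.68 ± 0.078 and -2.51 ± 0.078, adjusted p = 1.1e-08 and 6.1e-10). F8, the cofactor of factor IXa that endothelial cells mainly supply, spanned 0.7 to 1.15 FPKM over the control libraries and 0.06 to 0.21 FPKM over those with the transgene (adjusted p = 8.5e-06 and 6.4e-06). F12, the factor XII that starts contact activation, was at 0 and 0.08 FPKM in 97H and 4.26 and 4.55 FPKM in 97H_OGT (log2 2.38 ± 0.1, adjusted p = 6.3e-09). The 97L libraries had 0.34 and 0.29 FPKM and 97L_OGT 1.71 and 1.17 FPKM (log2 0.88 ± 0.1, adjusted p = 1.7e-05).

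The other factors and the contact proteins were too low to test. F7 and F10, neighbours on chromosome 13, had different patterns in line 97H and the same direction in line 97L. F7 was at 0.19 and 0.17 FPKM in 97H, 0.58 and 0.65 FPKM in 97L and at most 0.02 FPKM with Flag-OGT. F10 was at 0.07 and 0.11 FPKM in 97H, 0.18 and 0.36 FPKM in 97H_OGT, 0.55 and 0.85 FPKM in 97L, and 0.24 and 0.22 FPKM in 97L_OGT. F11 was at 0.31 and 0.17 FPKM in 97H, 0.32 and 0.37 FPKM in 97H_OGT, 0.26 and 0.62 FPKM in 97L, and 0.96 and 0.79 FPKM in 97L_OGT. Its libraries with the transgene were the higher in both lines, but in 97H the closest values, 0.31 and 0.32 FPKM, differed only in the last decimal given. KNG1, the kininogen from which bradykinin is cut, was at 0.71 and 0.65 FPKM in 97L and at most 0.15 FPKM elsewhere. KLKB1, the prekallikrein gene next to F11 on chromosome 4, reached at most 0.06 FPKM. F13B, a carrier subunit of factor XIII, was listed above 0 in a single library, at 0.03 FPKM.

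The fibrinogen chain genes, which lie side by side on chromosome 4 in the order FGB, FGA, FGG, were all lower with the transgene, of which FGA and FGB could be tested. FGA was at 9.81 and 10.9 FPKM in 97H and listed at 0 and 0.04 FPKM in 97H_OGT (log2 -3.48 ± 0.084, adjusted p = 7.9e-11). Levels in line 97L were 5.05 and 5.77 FPKM without and 0.05 and 0 FPKM with the transgene (log2 -2.64 ± 0.084, adjusted p = 6.9e-10). FGB was at 2.78 and 3.08 FPKM in 97H and 0.18 and 0.07 FPKM in 97H_OGT, and at 3.04 and 3.5 FPKM in 97L and 0.36 and 0.34 FPKM in 97L_OGT (log2 -1.81 ± 0.084 and -1.66 ± 0.084, adjusted p = 1.1e-08 and 2.5e-08). FGG, below the filter with a mean under 0.5 FPKM, was at 0.59 and 0.67 FPKM in 97H and 0.06 and 0.03 FPKM in 97H_OGT, and at 0.84 and 0.92 FPKM in 97L and 0.07 and 0.03 FPKM in 97L_OGT. A secreted fibrinogen molecule holds equal numbers of the 3 chains, but per length the control level of FGA was 9.81 and 10.9 FPKM where that of FGG was 0.59 and 0.67 FPKM in 97H.

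The 250 bases before the RefSeq start of these 3 genes (GRCh38.p14) are shown because the genes are neighbours that all had less RNA with the transgene. Capitals mark matches, on either strand, to a C/EBP pattern (TTGCNNAA), of which these windows hold at most 1; GC boxes were searched but not capitalised. FGA lies on the minus strand at chr4:154590743-154590992, FGB on the plus strand at chr4:154562730-154562979 and FGG on the minus strand at chr4:154612657-154612906.
FGA: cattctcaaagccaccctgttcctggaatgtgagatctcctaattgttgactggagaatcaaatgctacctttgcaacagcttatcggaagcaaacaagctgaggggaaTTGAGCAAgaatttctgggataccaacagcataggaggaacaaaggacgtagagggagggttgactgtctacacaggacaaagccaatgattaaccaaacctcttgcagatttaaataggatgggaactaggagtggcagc
FGB: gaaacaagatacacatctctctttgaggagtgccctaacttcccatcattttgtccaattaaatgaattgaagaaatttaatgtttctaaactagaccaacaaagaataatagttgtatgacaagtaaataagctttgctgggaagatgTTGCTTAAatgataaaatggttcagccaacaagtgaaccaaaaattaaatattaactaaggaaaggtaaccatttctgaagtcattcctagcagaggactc
FGG: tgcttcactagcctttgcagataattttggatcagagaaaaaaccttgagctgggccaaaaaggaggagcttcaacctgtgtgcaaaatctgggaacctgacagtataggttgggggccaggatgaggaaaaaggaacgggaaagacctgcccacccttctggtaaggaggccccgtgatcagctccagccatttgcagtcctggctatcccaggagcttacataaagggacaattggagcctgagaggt
FGA held a C/EBP match 141 to 134 bases before its start and FGB 101 to 94 bases before the start shown. FGG held none in this window.

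Over the set, 31 of the 36 genes had a RefSeq window, 44 windows in all, and C1S, C3, CLU, PLAT and THBD had none. The C/EBP pattern was in 14 of 44 (31.8%) and in 9.05% of all 35116 windows of this length. Those 14 windows belong to 11 of the 31 genes, and the overlapping windows of FGB hold the same match. Among the 11 are C6, KLKB1 and KNG1, which were too low to test. The core CAAAGTC of HNF4 sites was in 2 of 44 and 2.91% of all, the AP-1 pattern TGANTCA in 4 of 44 and 6.57% of all, the NF-kappaB pattern in 0 of 44 and 1.4% of all, the TATA box TATAAA in 3 of 44 and 10.7% of all, and the GC box GGGCGG in 11 of 44 and 42.6% of all. Windows of 1 gene can overlap, and a match describes letters, not binding.

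Most of the listed transcription factors and receptors that act on liver promoters were lower in the same libraries. Of the 15 listed regulators 12 were tested, and 12 were lower in 97H and 11 in 97L, where 36.3% and 34.7% of all tested genes were lower. NR5A2, untested, was at 0.03 FPKM in both 97H libraries, 0.5 and 0.55 FPKM in 97H_OGT, 0.99 and 1.1 FPKM in 97L, and 0.3 and 0.35 FPKM in 97L_OGT. PROX1 was at 2.01 and 2.23 FPKM in 97H, 0.46 and 0.45 FPKM in 97H_OGT, 0.18 and 0.12 FPKM in 97L, and 0.26 and 0.27 FPKM in 97L_OGT. CEBPA, a C/EBP factor, fell from 47.1 and 43.5 FPKM to 11.8 and 12.5 FPKM in 97H and from 85.3 and 87.3 FPKM to 10.2 and 8.77 FPKM in 97L. IL6R, the receptor through which interleukin-6 raises fibrinogen in the acute phase, fell from 14.5 and 14.97 FPKM to 2.11 and 2.24 FPKM in 97H and from 11.2 and 10.7 FPKM to 2.7 and 2.68 FPKM in 97L. Their part in the levels of the clotting genes was not tested.

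The anticoagulant genes went in different directions. PROS1, the protein S cofactor of activated protein C, was at 1.1 and 0.86 FPKM in 97H and 3.11 and 3.17 FPKM in 97H_OGT, and at 0.76 and 0.37 FPKM in 97L and 1.74 and 1.74 FPKM in 97L_OGT (log2 1.07 ± 0.11 and 0.82 ± 0.11, adjusted p = 7.4e-06 and 6.0e-05). PROC, protein C itself, was at 0.74 and 0.77 FPKM in 97H and 0.08 and 0.11 FPKM in 97H_OGT, and at 2.05 and 1.99 FPKM in 97L and 0.06 and 0.16 FPKM in 97L_OGT (adjusted p = 6.9e-06 and 2.0e-08). THBD, thrombomodulin, the thrombin receptor that switches thrombin to activating protein C, was at 1.06 and 0.93 FPKM in 97H and 0.02 and 0.07 FPKM in 97H_OGT, and at 2.41 and 2.83 FPKM in 97L and 0.01 and 0 FPKM in 97L_OGT (adjusted p = 1.3e-06 and 6.7e-09). TFPI2, a Kunitz inhibitor of plasmin and other proteases, was high in 1 group: 6.41 and 6.12 FPKM in 97L, against 0.41 and 0.27 FPKM in 97H, 0.38 and 0.57 FPKM in 97H_OGT and 0.6 and 0.46 FPKM in 97L_OGT. It fell in 97L (log2 -2.25 ± 0.091, adjusted p = 4.3e-09), and in 97H the libraries overlapped (log2 0.14, 95% interval -0.07 to 0.34, adjusted p = 0.18).

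The urokinase system fell while the other plasminogen activator rose. PLAU, urokinase, was at 17.8 and 19.9 FPKM in 97H and 0.95 and 1.35 FPKM in 97H_OGT, 16.4-fold lower (log2 -3.21 ± 0.1, adjusted p = 5.1e-10). For 97L the values were 7.31 and 6.64 FPKM, and for 97L_OGT 0.65 and 0.58 FPKM, 11.3-fold lower (log2 -2.30 ± 0.1, adjusted p = 7.6e-09). PLAUR, which holds urokinase at the cell surface, was at 23.1 and 22.1 FPKM in 97H and 6.94 and 6.53 FPKM in 97H_OGT (log2 -1.61 ± 0.059, adjusted p = 1.7e-09). Line 97L went from 29.9 and 29.4 FPKM to 13.8 and 13.6 FPKM (log2 -1.06 ± 0.059, adjusted p = 4.8e-08), so the receptor kept more of its level than its ligand in both lines by these means. PLAT, tissue plasminogen activator, was at 15.3 and 13.8 FPKM in 97H and 30.4 and 29.6 FPKM in 97H_OGT, 2.06-fold higher (log2 1.00 ± 0.083, adjusted p = 1.2e-06). The 97L libraries had 6.47 and 7.24 FPKM and 97L_OGT 11.6 and 13.4 FPKM, 1.83-fold higher (log2 0.78 ± 0.083, adjusted p = 8.7e-06). PLG, the plasminogen that both enzymes cut, was at 0.05 and 0.02 FPKM in 97L and listed at 0 in the other 6 libraries.

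**Figure D3:**
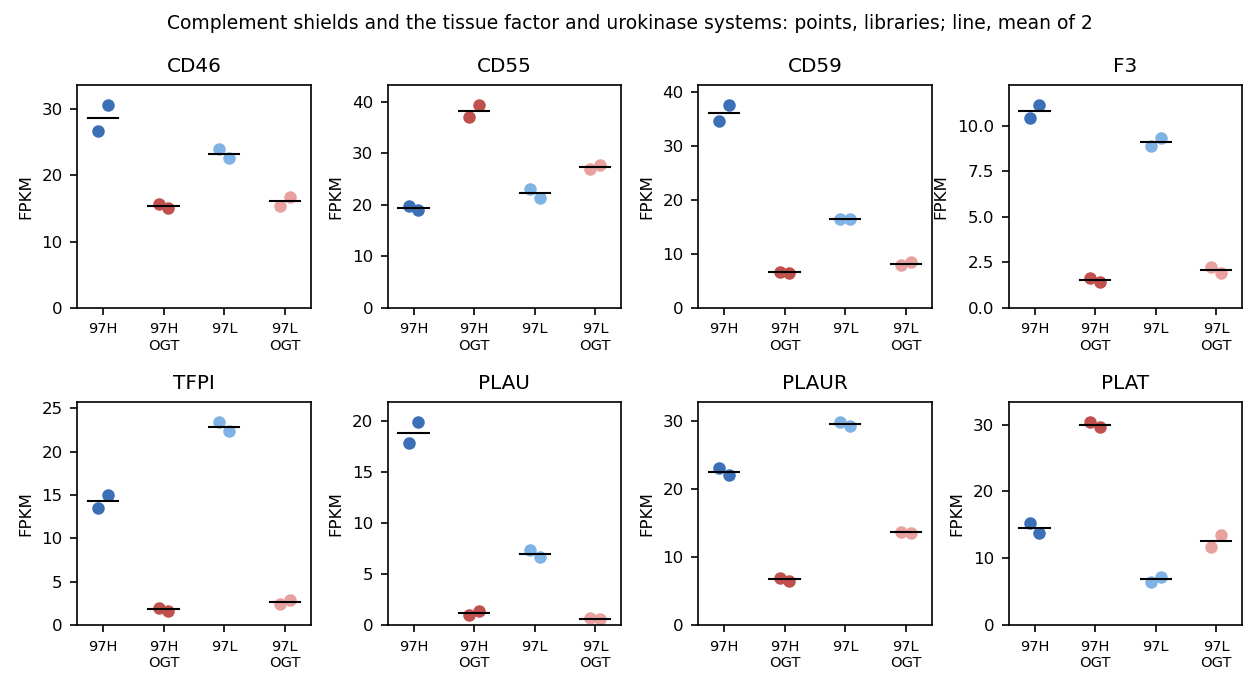
Each panel is 1 gene, with FPKM on a linear axis from 0, points for the 2 libraries of a group and a line at their mean. CD55 and PLAT lie higher with Flag-OGT in both lines, and CD46, CD59, F3, TFPI, PLAU and PLAUR lie lower, with no overlap between a group and its control.

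Promoter windows of tissue factor, the urokinase receptor and CD55 are shown because the first 2 fell and the last rose in the same libraries. Capitals mark matches to the AP-1, C/EBP and TATA patterns above. F3 lies on the minus strand at chr1:94541760-94542009, PLAUR on the minus strand at chr19:43670170-43670419 and CD55 on the plus strand at chr1:207321428-207321677 (RefSeq, GRCh38.p14).
F3: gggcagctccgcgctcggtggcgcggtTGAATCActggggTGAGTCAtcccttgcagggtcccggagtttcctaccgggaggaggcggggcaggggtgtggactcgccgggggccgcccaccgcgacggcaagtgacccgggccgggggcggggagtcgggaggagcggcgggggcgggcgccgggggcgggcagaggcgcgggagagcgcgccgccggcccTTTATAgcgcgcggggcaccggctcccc
PLAUR: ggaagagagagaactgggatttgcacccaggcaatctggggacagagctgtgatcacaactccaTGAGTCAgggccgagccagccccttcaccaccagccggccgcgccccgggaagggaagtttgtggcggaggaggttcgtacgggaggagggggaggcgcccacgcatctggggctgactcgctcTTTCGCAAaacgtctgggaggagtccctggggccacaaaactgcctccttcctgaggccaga
CD55: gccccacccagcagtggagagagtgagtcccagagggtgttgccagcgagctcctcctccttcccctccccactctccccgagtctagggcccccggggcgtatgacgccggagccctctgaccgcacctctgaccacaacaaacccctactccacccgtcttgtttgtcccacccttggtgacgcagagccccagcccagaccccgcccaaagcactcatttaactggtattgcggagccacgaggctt
F3 held AP-1 matches 223 to 217 and 210 to 204 bases and a TATA box 28 to 23 bases before its start. PLAUR held an AP-1 match 186 to 180 and a C/EBP match 62 to 55 bases before its start. CD55 held none of the capitalised patterns in this window. GC boxes lay 46 to 41 bases before the start of CD55 and, in the F3 window, 137 to 132, 104 to 99, 78 to 73 and 65 to 60 bases before the start.

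Genes of the same cascades outside the set, from lists of which 32, 22 and 10 complement, coagulation and fibrinolysis genes were found, also went in both directions; of all tested genes 36.3% were lower and 48.2% higher in 97H, and 34.7% and 50.1% in 97L. Of the complement genes 12 were tested, with 8 lower and 3 higher in 97H and the same counts in 97L. CFD, the protease that cuts factor B, rose from 1.47 and 1.33 FPKM to 11.7 and 11.96 FPKM in 97H and from 4.86 and 3.96 FPKM to 15.1 and 13.5 FPKM in 97L (log2 2.42 ± 0.091 and 1.51 ± 0.091, adjusted p = 2.2e-09 and 1.0e-07). Of 11 tested coagulation genes 6 were lower in each line, with 4 higher in 97H and 3 in 97L. PROCR, the receptor that presents protein C to thrombomodulin, fell from 118 and 111 FPKM to 18.4 and 19.8 FPKM in 97H and from 116 and 111 FPKM to 13.7 and 12.8 FPKM in 97L. F2RL2, a protease-activated receptor cut by thrombin, fell from 11.6 and 12.7 FPKM to 0.09 and 0.19 FPKM in 97H and from 16.2 and 15.7 FPKM to 0.43 FPKM in both 97L_OGT libraries. ADAMTS13, the protease that trims von Willebrand factor, rose from 0.41 and 0.29 FPKM to 7.19 and 7.49 FPKM in 97H and from 1.16 and 1.6 FPKM to 6.92 and 6.42 FPKM in 97L. Of 5 tested fibrinolysis genes 4 were lower and 1 higher in both lines. ANXA2 and S100A10, which together form a plasminogen receptor, were among those that fell: in line 97H, ANXA2 went from 2119 and 2154 FPKM to 42.5 and 40.3 FPKM, and S100A10 from 2278 and 2415 FPKM to 130.3 and 130.7 FPKM. PLGRKT, another plasminogen receptor, rose from 2.2 and 2.84 FPKM to 15.1 and 13.4 FPKM in 97H and from 4.16 and 3.3 FPKM to 10.5 and 10.8 FPKM in 97L.

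The changes of the members in both lines, which share no library, had a Pearson r of 0.85 over the 26 tested genes, given as a description because the genes were measured in the same libraries. Of the 26, 19 were called lower in both lines (27.4% of all tested genes), 4 higher in both (CD55, F12, PROS1 and PLAT; 40.0% of all tested genes) and 0 in opposite directions. C2, CFI and TFPI2 were not called in at least 1 line.

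**Figure D4:**
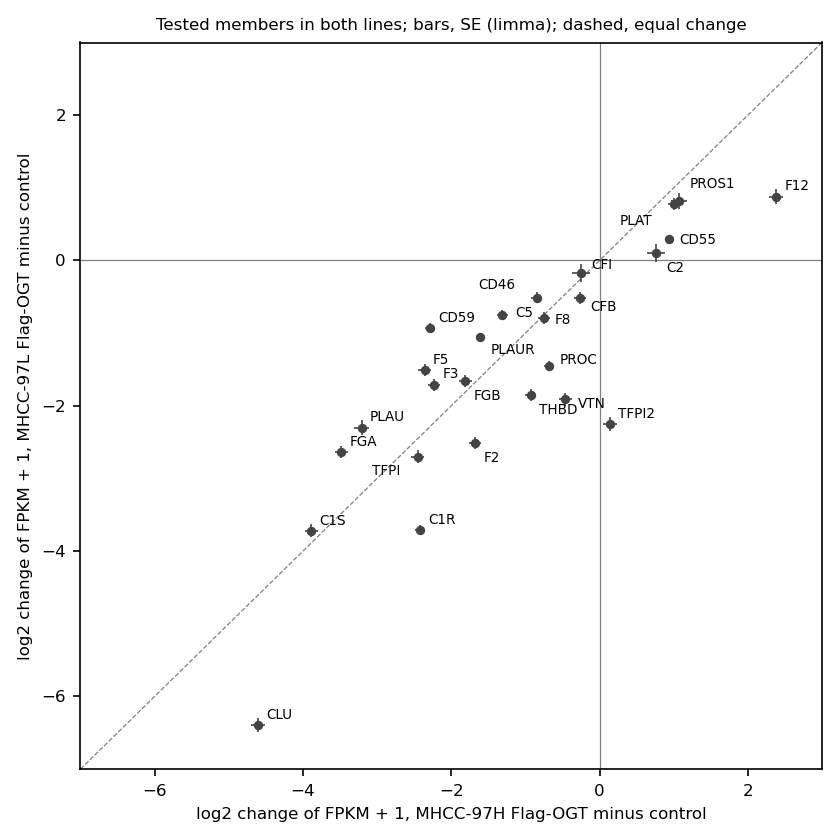
Points are the 26 tested genes, with the log2 change of FPKM + 1 in 97H on the horizontal axis and in 97L on the vertical axis, bars the SE and the dashed line equal change. CLU is lowest at -4.61 and -6.39, TFPI2 is near 0 in 97H and at -2.25 in 97L, and F12 is farthest right at 2.38.

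The size of the change differed between the lines for 18 of the 26 tested genes by the interaction term, where 63.3% of all tested genes were called, a share near that of the members. The change in 97H was the higher for 10 (33.9% of all tested genes) and the lower for 8 (29.4%). It differed by at least 2-fold for 5 upward (9.08% of all tested genes) and 1 downward (3.31%). CD59 fell further in 97H (difference of log2 changes -1.36 ± 0.09, adjusted p = 1.5e-06), and so did PLAU (-0.91 ± 0.14, adjusted p = 3.7e-04) and FGA (-0.83 ± 0.12, adjusted p = 2.0e-04). CLU (1.78 ± 0.13, adjusted p = 3.4e-06), VTN (1.44 ± 0.12, adjusted p = 6.8e-06) and TFPI2 (2.39 ± 0.13, adjusted p = 4.1e-07) had the lower change in 97L. These differences also hold the differences between the control levels of the lines, with which they share libraries.

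Without the transgene, the line of high metastatic potential had more RNA of both plasminogen activators, CD59, FGA, F5 and C5. The line of low potential had more of TFPI2, VTN, C2, F2, CFB, THBD, PROC, TFPI, CLU and the urokinase receptor PLAUR. In the control libraries 22 tested members were called (65.4% of all tested genes), 9 higher and 13 lower in 97H than in 97L (26.5% and 38.9%). At 2-fold or more, 2 were higher and 4 lower (2.19% and 5.45%). Over all genes the split depended on the scaling, with 40.5% of calls higher in 97H as deposited and 52.5% and 54.6% after rescaling to a common sum and by median-of-ratios; the members were then 9 higher and 11 lower under each. The calls of C1R, CD46, CD55, F3, F12 and PROS1 between the control lines were lost under at least 1 alternative. PLAU (17.8 and 19.9 against 7.31 and 6.64 FPKM; log2 1.32 ± 0.1, adjusted p = 2.6e-06), CD59 (34.7 and 37.6 against 16.5 and 16.4 FPKM; 1.09 ± 0.064, adjusted p = 5.0e-07) and PLAT (15.3 and 13.8 against 6.47 and 7.24 FPKM; 0.99 ± 0.083, adjusted p = 5.3e-06) were higher in 97H. TFPI2 was 18.4-fold higher in 97L (log2 -2.44 ± 0.091 for 97H minus 97L, adjusted p = 2.8e-08). Other genes higher in 97L included VTN (-1.35 ± 0.086, adjusted p = 8.0e-07), C2 (-1.08 ± 0.12, adjusted p = 2.6e-05) and F2 (-1 ± 0.078, adjusted p = 3.0e-06). Fibrinogen was split, with FGA higher in 97H (0.83 ± 0.084, adjusted p = 1.8e-05) and FGB overlapping between the lines (-0.12, 95% interval -0.31 to 0.07, adjusted p = 0.242). The hepatocyte markers were higher in 97L beside these factors (7 of 9 tested, with 1 lower), and their part in these differences was not tested.

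**Figure D5:**
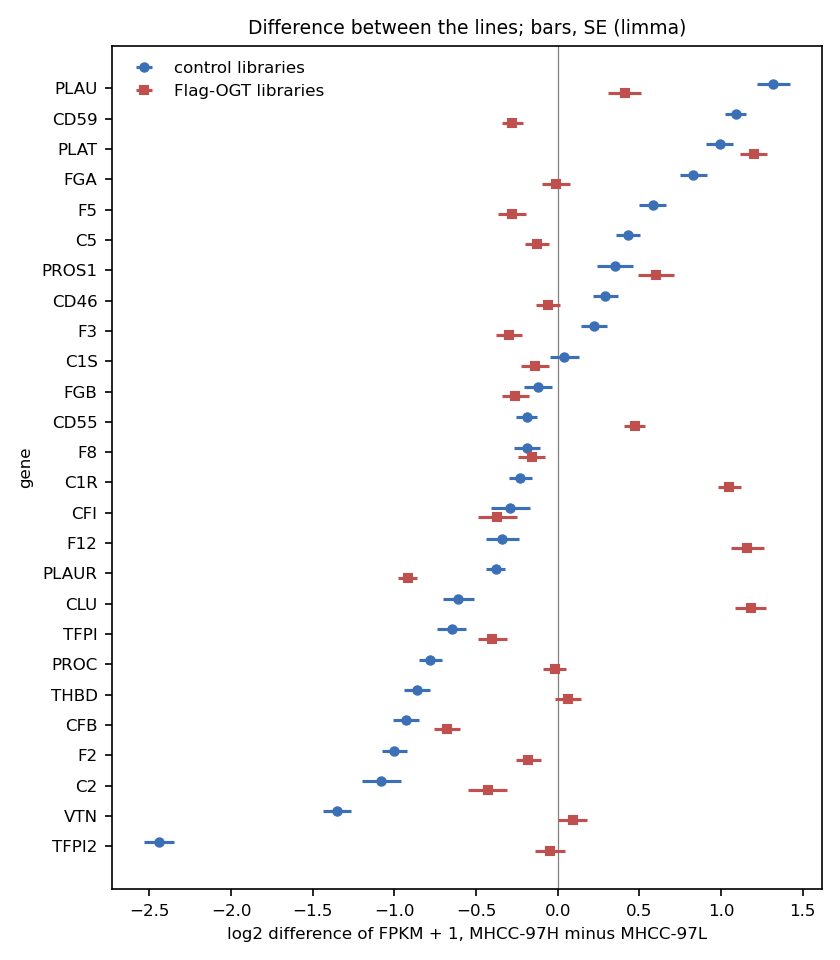
Rows are the 26 tested genes, with the log2 difference of FPKM + 1 between 97H and 97L on the horizontal axis, circles for the control and squares for the Flag-OGT libraries, and bars for the SE. TFPI2 lies at -2.44 in the controls and -0.05 with Flag-OGT, while PLAT lies to the right of 0 in both.

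Between 97H_OGT and 97L_OGT, 16 tested members were called (69.7% of all tested genes), 7 higher and 9 lower in 97H_OGT (33.6% and 36.1%). They were 7 and 5 after rescaling to a common sum and 7 and 6 with median-of-ratios, as the higher share of calls over all genes went from 48.2% to 62.6% and 60.2%. Without the second 97H_OGT library, or without the first 97L_OGT library, 5 members were lower. At 2-fold or more, 4 members were higher in 97H_OGT and 0 lower (4.24% and 3.59% of all tested genes). They were PLAT (adjusted p = 1.3e-06, with 30.4 and 29.6 FPKM against 11.6 and 13.4 FPKM), CLU (adjusted p = 3.3e-06, with 9.86 and 10.8 FPKM against 4.51 and 3.55 FPKM), F12 (log2 1.16 ± 0.1, adjusted p = 6.3e-06) and C1R (1.05 ± 0.07, adjusted p = 1.0e-06). Of these, PLAT was also higher in 97H without Flag-OGT, whereas CLU, F12 and C1R were lower there (log2 -0.61, -0.34 and -0.23); that of C1R was not called after either rescaling. PLAUR was lower in 97H in both states (-0.38 ± 0.059 and -0.92 ± 0.059, adjusted p = 3.1e-04 and 7.8e-07).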

How the data were processed

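The authors deposited a gene-level FPKM table with 1 column per library, rounded to 2 decimals. Trizol RNA and a SMARTer kit were used, per the labels' protocols. The submitters' processing notes name hg19 and the tools HISAT2 2.1.0, Bowtie2, DESeq2 1.18.1 and RSEM 1.2.4, without saying what made the FPKM. Depth is unknown. Left out were 26 rows whose symbols had turned into dates. Log2(FPKM + 1) values of genes with a mean of at least 0.5 FPKM were fitted in limma 3.58.1 (R 4.3.3) with 4 group means and a variance trend over expression, leaving 4 residual degrees of freedom. Benjamini-Hochberg adjustment ran over the 13553 tested genes. The procedure was tested on simulated data in which few genes changed, none of them low in the simulated control. That test does not cover data where most genes were called, or members with very low FPKM. Nothing says that the libraries are separate cultures, so p-values measure the spread between libraries, which may be technical. The members, the lists and the tests were chosen with earlier results of these data known. Members with a mean of at least 5 FPKM in any group were given library by library, the others where needed; of other pathway genes, at most 4 per list with the largest called change, plus HNF4A; a few genes that qualify are left out of the text. CEBPA, PLGRKT, NR5A2, PROX1 and the single endothelial and fibroblast markers lie outside that rule and were chosen after their values were seen. Alternatives were a pseudocount of 0.1, no filter or a filter of 2, median-of-ratios scaling, rescaling to a common sum, a replicate block, a 2-fold minimum, a fit of the compared groups alone and omission of each library in turn. Promoter windows came from RefSeq (GRCh38.p14), a build other than that of the table, and were matched by symbol. Tables and figures used pandas 2.3.3 and matplotlib 3.10.9.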

Additional observations from a re-analysis of the deposited data

Results flagged for a closer look

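The change with Flag-OGT differed between line 97H and line 97L, by the interaction term of the limma fit, for 18 members; values are the log2 change in line 97H minus that in line 97L. Of genes that fell in both lines, the fall was deeper in line 97H for CD59 (-1.36), PLAU (-0.91), F5 (-0.86), FGA (-0.83), C5 (-0.56), PLAUR (-0.54), F3 (-0.52) and CD46 (-0.34). It was deeper in line 97L for CLU (1.78), VTN (1.44), C1R (1.28), THBD (0.91), F2 (0.83) and PROC (0.76). These depths are on the log2(FPKM + 1) scale; by the ratio of mean FPKM the order turns for F2, which was 58.8-fold lower in line 97H and 32.6-fold lower in line 97L. Of genes that rose, the gain was larger in line 97H for F12 (1.5) and CD55 (0.66). TFPI2 (2.39) fell in line 97L and was not called in line 97H, and C2 (0.66) rose in line 97H and was not called in line 97L. For PROC, THBD, VTN and FGA, below 0.5 FPKM in both Flag-OGT groups, the value mostly restates the difference between the controls. That difference, 97H minus 97L, was log2 -0.78, -0.86, -1.35 and 0.83, and -2.44 for TFPI2. For these genes a deeper fall cannot be told apart from a higher control level. Of all tested genes 63.3% were called by the interaction term. The difference for CD46 was no longer called without any 1 of 4 libraries, the second of each group (adjusted p = 0.05 to 0.0717), and that for F2 not with a pseudocount of 0.1 (0.28, adjusted p = 0.324).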

How the results depend on the processing

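Counts below are members called, then higher, then lower. A mean FPKM filter of 2 left 15 members tested and gave 15, 3 and 12 for Flag-OGT in line 97H and 14, 2 and 12 in line 97L, with 5 higher for the difference between lines and 14 called and 7 lower for the controls of both lines. A 2-fold minimum gave 15 called and 2 higher in line 97H, 15 and 0 in line 97L, 6, 5 and 1 for the difference, 6, 2 and 4 for the controls, and 4, 4 and 0 for the Flag-OGT libraries of both lines. Without a filter the difference between lines had 16 higher. Rescaling to a common sum left 5 lower between the Flag-OGT libraries. Leaving out each library gave 23 to 25 called in line 97H, 24 to 25 in line 97L, 17 to 19 for the difference, 18 to 22 for the controls, and 11 to 17 between the Flag-OGT libraries (5 to 10 lower). The fit with a replicate block called 25, 24, 18, 23 and 16 members; the same-numbered libraries are not stated to be paired, and the correlation of their deviations ran from -0.21 to 0.31 over pairs of groups. Of 24 calls in line 97H 23 were kept under every alternative that gave a value, the 2-fold minimum aside, as were 23 of 24 in line 97L, 16 of 18 for the difference, 16 of 22 for the controls and 9 of 16 between the Flag-OGT libraries. The sign turned for values that were not called: C2 in line 97L with median-of-ratios scaling (-0.06; -0.05 to 0.25 over libraries left out), CFI in line 97L (-0.35 to 0.01), the differences between lines of CFB with a pseudocount of 0.1 (-0.05), of F8 with that pseudocount (-0.42) and with median-of-ratios (-0.01; -0.06 to 0.12) and of CFI (-0.25 to 0.10), C1S in the controls (-0.01 to 0.08), and, between the Flag-OGT libraries, CD46 after rescaling (0.13) and median-of-ratios (0.09), TFPI2 after rescaling (0.01; -0.15 to 0.04), FGA (-0.04 to 0.03) and PROC (-0.08 to 0.05). The cause was not tested. Depth is unknown, and values near 0 FPKM may rest on very few reads.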
